A study of Mus musculus with 4 samples.

Results

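Macrophages of the lung airspace remove dying cells, and the 10 genes described here encode receptors, soluble bridges and signalling proteins of that uptake. They were taken by name from the deposited gene table, and all 10 were among its 54532 genes. Bulk RNA-seq was available for 4 libraries of alveolar macrophages (AMs), all from the lungs of female wild-type mice. Per the methods of the study, its wild-type mice were BALB/c and 8 to 10 weeks old. The Control group held 2 libraries from mice that received no tumor. The Tumor group held 2 libraries from mice that carried a primary 4T1 tumor for 2 weeks, 4T1 being a BALB/c mammary carcinoma line whose cells, once placed in the fat pad, seed the lung. The study isolated AMs for imaging and for RNA-seq, and it gives the isolated cells, where it images them, as CD45+ CD11b- CD11c+ SiglecF+. Such a gate would remove neutrophils and other cells with CD11b, and hepatocytes and fibroblasts, which lack CD45. Neither the labels nor the methods say whether a library came from 1 mouse or from a pool, so p-values measure the spread between these libraries, which may be technical. The study asked how AMs change before visible lung metastasis.

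Cells that die by apoptosis expose phosphatidylserine, a lipid that is normally kept on the inner face of the plasma membrane. Phagocytes recognize this lipid either directly, through receptors such as TIM-4, or through soluble bridges that bind the lipid on one side and a receptor on the other. GAS6 and protein S bridge to the receptor tyrosine kinases TYRO3, AXL and MERTK, together called the TAM receptors, and MFG-E8 bridges to integrins of the alpha v family. TAM receptors also restrain cytokine production after uptake, and AXL is known as a TAM receptor that mouse AMs carry at steady state.

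Library totals ranged from 16167147 to 19205737 counts and differed by up to 1.19-fold. Values below are CPM, that is, counts scaled by TMM to a common library size, and 3 counts or fewer, at most 0.190 CPM, were treated as the floor of detection. This floor covers counting error only. The AM label was checked against 14 AM markers, which summed to 16427 to 16572 CPM in the Control and 12565 to 12707 CPM in the Tumor libraries, with 12 of the 14 called lower and 1 called higher. Markers of other cells moved with the groups. The 12 neutrophil markers summed to 113.7 to 113.9 CPM in the Control and 4495 to 4511 CPM in the Tumor libraries, with all 12 called higher and 5 at the floor in both Control libraries. The 5 eosinophil markers summed to 0.634 to 0.640 CPM against 2629 to 2669 CPM, and the 10 hepatocyte markers to 147 to 149 CPM against 952 to 967 CPM. Nearly all of the hepatocyte sum in the Control libraries was Trf (142.7 CPM), which was called lower, while the other 9 were called higher, 7 of them at the floor in both Control libraries. Markers of basophils and mast cells, dendritic cells, lymphocytes and fibroblasts also had higher sums in both Tumor libraries, whereas those of lung epithelium and Kupffer cells had lower sums. Of the dendritic cell markers, 4 were called higher and 1 lower. In the 3 lists not yet named the markers also moved both ways. Vwf made up most of the endothelial sum and was called lower, but 2 of the 6 markers were called higher. Cd14 made up most of the sum of monocytes and interstitial macrophages and was called lower, but 4 of the 9 were called higher, among them Itgam, which encodes CD11b and was at 1.12 and 1.14 CPM in the Control and 130.4 and 133 CPM in the Tumor libraries. The platelet sum was higher through Itga2b, 1 of its 5 markers. In bulk RNA, fewer cells of a type and less RNA per cell cannot be told apart.

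**Figure D1:**
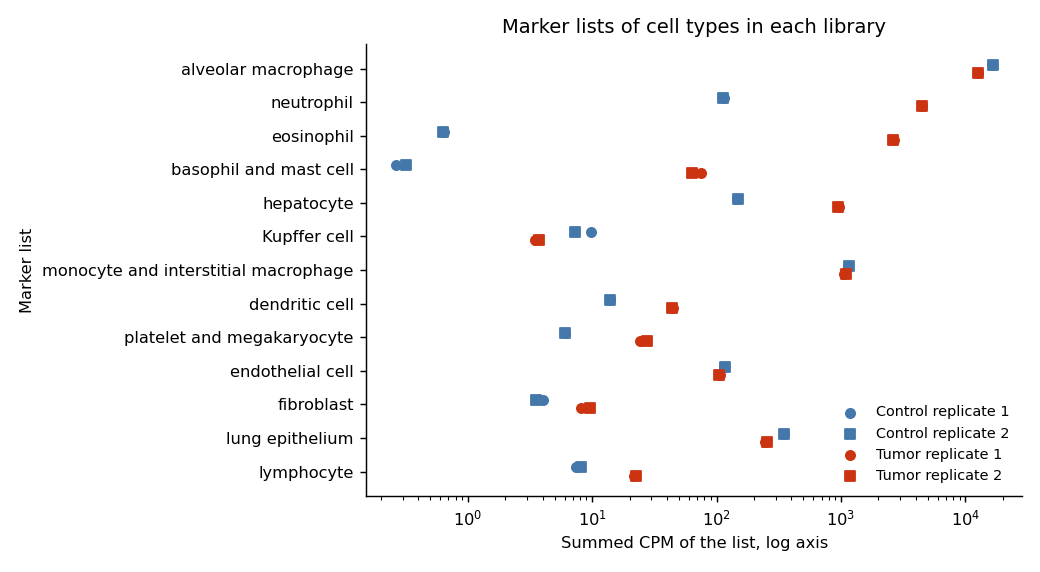
Summed CPM of each marker list (log axis) in the 4 libraries. The sums for neutrophils, eosinophils, basophils with mast cells and hepatocytes were higher in both Tumor libraries, and the sum of the 14 AM markers was lower, at 12565 to 12707 CPM against 16427 to 16572 CPM.

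Tumor libraries were compared with Control libraries for all genes with enough counts, and the 10 genes were then read from that comparison. Of the 9 that were tested, 2 were higher in Tumor AMs and 4 were lower at an adjusted p under 0.05 (edgeR's quasi-likelihood test with Benjamini-Hochberg adjustment), and 3 were not called. Mfge8 and Anxa1 were the higher genes. Mertk, Axl, Cd36 and Pros1 were the lower genes. Among all 14256 genes tested, 53.8% were called, 29.0% as higher and 24.8% as lower, so the 66.7% called among the 9 genes is read against a high background. The median log2 fold change was -0.16 over the 9 genes and 0.02 over all genes tested.

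Directions depended on the scaling. With library sizes set by the 14 AM markers instead of TMM, the median of all genes tested moved from 0.02 to 0.46 on the log2 scale, and the share of calls that were higher moved from 53.9% to 91.6%. Under this scaling 4 of the 9 genes were higher, namely Mfge8, Anxa1, Elmo1 and Pros1, and 1, Mertk, was lower, against 72.0% of all genes tested that were called, 65.9% as higher and 6.08% as lower. Mfge8, Anxa1 and Mertk kept their direction and their call under both scalings.

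**Figure D2:**
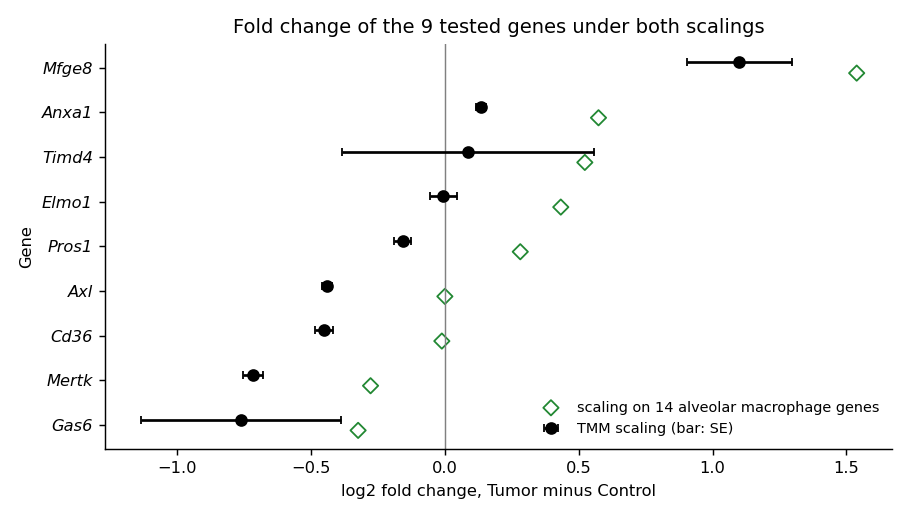
Log2 fold change (Tumor minus Control) of the 9 tested genes under TMM scaling (circles, bars are SE) and under scaling on 14 AM markers (diamonds). Mertk lay below 0 and Mfge8 and Anxa1 lay above 0 under both, whereas Axl moved from -0.44 to nearly 0 and Pros1 from -0.16 to 0.28.

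Of the TAM receptors, Axl and Mertk were lower in the Tumor libraries and Tyro3 was barely detected. Axl (ENSMUSG00000002602, minus strand of chromosome 7, 25757273 to 25788705, GRCm38 coordinates) encodes a receptor with high affinity for GAS6. It was at 2021 and 2033 CPM in the Control and at 1529 and 1458 CPM in the Tumor libraries. Both Tumor libraries thus lay below both Control libraries, from 2027 ± 8.45 to 1493 ± 50.4 CPM (SD, n = 2 each). This 1.36-fold lower level, -0.44 ± 0.0199 on the log2 scale (SE), passed edgeR's test at an adjusted p of 4.37e-17. Scaling on the AM markers ended this call, with a log2 fold change of -0.000390 and an adjusted p of 0.989 in the same edgeR test. Axl thus moved about as far as the median of the AM markers, a log2 fold change of -0.46 under TMM scaling. Single AM markers did not move together and ranged from -2.13 to 0.96.

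Mertk (ENSMUSG00000014361, plus strand of chromosome 2, 128698956 to 128802894) encodes the TAM receptor that many tissue macrophages use for uptake. It was at 229 and 219 CPM in the Control and at 139.7 and 133 CPM in the Tumor libraries, again without overlap. Group means were 224 ± 7.21 and 136 ± 4.90 CPM (SD, n = 2 each). Mertk fell by 0.72 ± 0.0374 on the log2 scale (SE), or 1.65-fold, and the adjusted p from edgeR was 1.21e-15. It was also lower under scaling on the AM markers, by -0.28 with an adjusted p of 7.68e-07. The small genes Gm23172 and Gm14011 lie within Mertk and reached at most 24 counts in a library.

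Tyro3 (ENSMUSG00000027298, plus strand of chromosome 2, 119797733 to 119818104), the TAM receptor best known from neurons, had 2 and 4 counts in the Control and 14 and 9 in the Tumor libraries. Summed over a group this was 6 counts, with an exact Poisson 95% interval of 2.20 to 13.1, against 23 counts with an interval of 14.6 to 34.5. The low count kept it out of the main test. With no filter on low counts its log2 fold change was 1.78 with an edgeR adjusted p of 0.0699, and the Wald test of DESeq2 gave 1.82 with an adjusted p of 0.196. Without Tumor replicate 2 it passed the filter and was called, at 2.16 with an edgeR adjusted p of 0.0445. Without Control replicate 1 it was at 1.28 and without Control replicate 2 at 2.47, with edgeR adjusted p of 0.392 and 0.115. Both Tumor libraries thus lay above both Control libraries, but on few counts, and the call was made only when Tumor replicate 2 was left out.

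**Figure D3:**
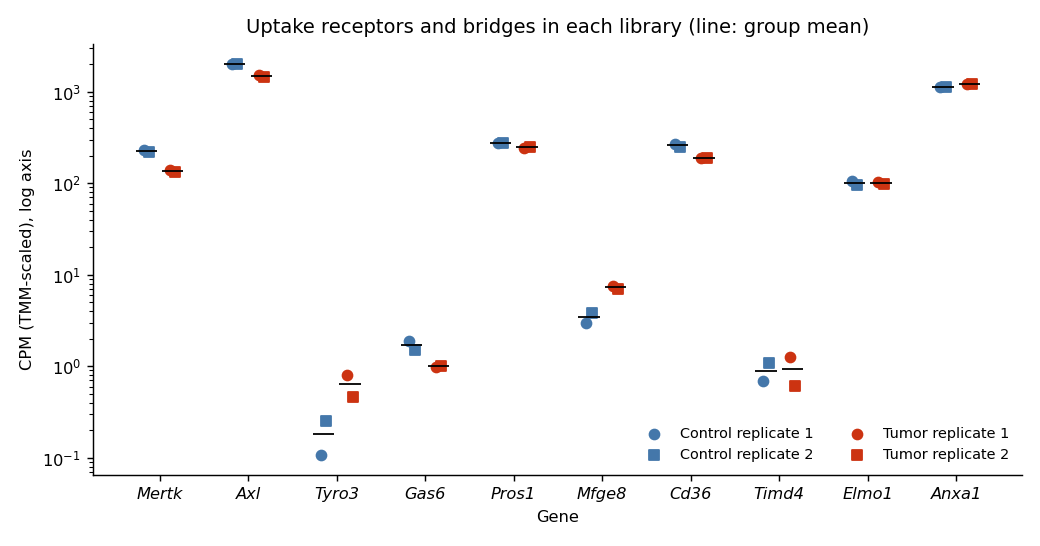
CPM (log axis) of each gene in the 4 libraries, with the group mean as a line. Axl, Mertk, Cd36 and Pros1 lie lower and Mfge8 and Anxa1 lie higher in both Tumor libraries, whereas Tyro3, Gas6 and Timd4 stay below 2 CPM (with scaling on the AM markers, Pros1 was higher and Axl and Cd36 were not called).

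Ratios of counts within a library do not depend on how libraries are scaled, and some were computed for pairs chosen after the values were seen. The ratio of Axl to Mertk counts was 8.83 and 9.29 in the Control and 10.94 and 10.98 in the Tumor libraries, since Mertk fell by more than Axl. Dividing counts by gene length, Axl made up 88.4% and 88.9% of the summed TAM receptor level in the Control and 90.38% and 90.42% in the Tumor libraries. Mertk made up 11.6% and 11.1% against 9.58% and 9.56%. The Tyro3 share was 0.00379% and 0.00900% against 0.0388% and 0.0231%. Groups did not overlap for any of these shares, but an exact two-sided permutation test of 2 against 2 libraries cannot go below p = 0.333, the value it gave for each. In plain counts, 10.2% of TAM receptor counts came from Mertk in Control replicate 1 (Wilson 95% interval 9.89% to 10.5%), 9.71% in Control replicate 2 (9.41% to 10.03%), 8.37% in Tumor replicate 1 (8.05% to 8.69%) and 8.35% in Tumor replicate 2 (8.04% to 8.66%). The intervals of the Control libraries thus lay above those of the Tumor libraries in counting error.

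The ligands of these receptors stood far apart in level per length, with protein S transcripts abundant at 67.2 CPM per kilobase in the Control group and Gas6 transcripts scarce at 0.665. Pros1 (ENSMUSG00000022912, plus strand of chromosome 16, 62854307 to 62929346) encodes protein S, an anticoagulant plasma protein that activates TYRO3 and MERTK. It was at 273 and 276 CPM in the Control and at 245 and 247 CPM in the Tumor libraries. The fall was small, 1.12-fold, but larger than the spread between replicates, from 275 ± 2.27 to 246 ± 0.889 CPM (SD, n = 2 each). On the log2 scale it was -0.16 ± 0.0302 (SE), for which edgeR gave an adjusted p of 6.12e-05. With scaling on the AM markers Pros1 was instead higher, by 0.28 with an adjusted p of 1.26e-08. Hepatocytes are a main source of plasma protein S. A CD45+ gate would remove them, but the hepatocyte marker Alb was at 464 and 477 CPM in the Tumor libraries. The part of the higher hepatocyte transcripts in the Pros1 level was not tested. The ratio of Axl to Pros1 counts, which needs no scaling, was 7.40 and 7.36 in the Control and 6.23 and 5.91 in the Tumor libraries.

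Gas6 (ENSMUSG00000031451, minus strand of chromosome 8, 13465374 to 13494490) encodes the ligand that binds all TAM receptors. It had 35 and 24 counts in the Control and 17 and 20 in the Tumor libraries, that is, 1.87 and 1.52 CPM against 0.982 and 1.02 CPM. Groups did not overlap, but the log2 fold change of -0.76 ± 0.373 (SE) did not pass edgeR's test (adjusted p = 0.0883). At this depth a Control group total of 59 counts has an exact Poisson 95% interval of 44.9 to 76.1, and a Tumor total of 37 has one of 26.1 to 51.0. The ratio of Pros1 to Gas6 counts, which needs no scaling, was 146 and 182 in the Control and 249.9 and 242 in the Tumor libraries.

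**Figure D4:**
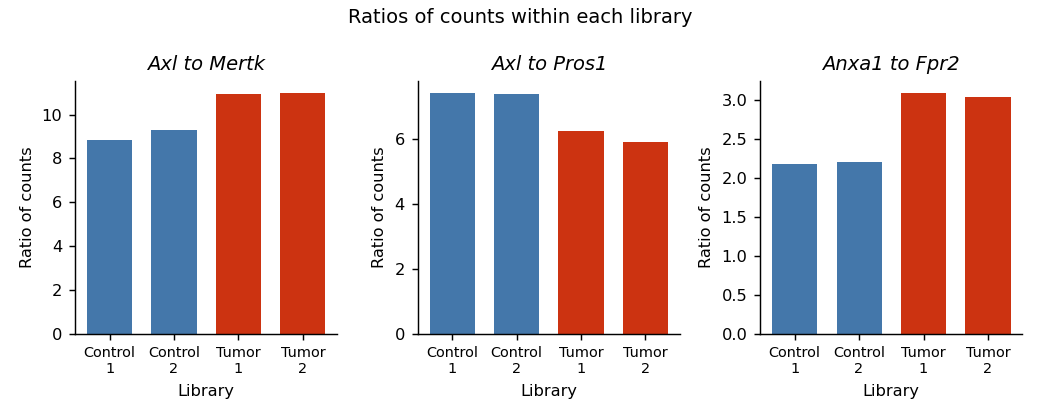
Ratios of counts within each library for Axl to Mertk, Axl to Pros1 and Anxa1 to Fpr2 (bars, linear axes from 0). The Axl to Mertk and Anxa1 to Fpr2 ratios are higher in both Tumor libraries than in both Control libraries, and the Axl to Pros1 ratio is lower.

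Mfge8 had the largest rise of the 9 tested genes. It encodes MFG-E8, a secreted glycoprotein that ties phosphatidylserine on dying cells to alpha v integrins on the phagocyte. Mfge8 (ENSMUSG00000030605, minus strand of chromosome 7, 79133768 to 79149060) had 56 and 61 counts in the Control and 132 and 137 in the Tumor libraries. Its level rose from 3.43 ± 0.620 to 7.30 ± 0.453 CPM (SD, n = 2 each), 2.14-fold, without overlap of the groups. The rise was 1.10 ± 0.196 on the log2 scale (SE), edgeR's adjusted p was 2.62e-05, and leaving out each library in turn gave 0.90 to 1.27. Mfge8 remained a scarce transcript in both groups. Dendritic cells and fibroblasts are known to make MFG-E8. A CD45+ SiglecF+ gate would remove fibroblasts and most dendritic cells, but the marker sums of both were higher in the Tumor libraries. The 8 dendritic cell markers, 4 called higher and 1 lower, summed to 13.8 to 14.003 CPM in the Control and 43.8 to 45.04 CPM in the Tumor libraries. The 5 fibroblast markers, 4 called higher, summed to 3.55 to 4.05 CPM against 8.14 to 9.68 CPM, and the part of either cell type in the rise of Mfge8 was not tested.

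Promoter windows of the 10 genes were read from RefSeq sequences of build GRCm38.p6, since the study concerns the aryl hydrocarbon receptor (AHR), whose response element holds the core GCGTG. All 10 symbols were matched, with 11 windows of 250 bases before to 50 after a transcription start. The core, searched on both strands as GCGTG or CACGC, was in 4 of the 11 windows (36.4%), those of Mfge8, Tyro3, Elmo1 (1 of its 2 windows) and Mertk, and in 32.4% of all 32851 windows of the same length. The share among these genes was near that of all genes, and a match is a description, not a binding site. The 250 bases before the start of Mfge8 (chr7:79149061-79149310, minus strand), the gene with the largest rise, are shown beside those of Axl (chr7:25788734-25788983, minus strand), the receptor with the highest level, 5′ to 3′ along each gene's strand and with the core in capitals.
Mfge8: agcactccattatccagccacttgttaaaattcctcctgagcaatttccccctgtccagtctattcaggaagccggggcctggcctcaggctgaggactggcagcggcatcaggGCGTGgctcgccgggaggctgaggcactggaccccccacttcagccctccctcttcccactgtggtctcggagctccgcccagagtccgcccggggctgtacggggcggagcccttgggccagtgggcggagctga
Axl: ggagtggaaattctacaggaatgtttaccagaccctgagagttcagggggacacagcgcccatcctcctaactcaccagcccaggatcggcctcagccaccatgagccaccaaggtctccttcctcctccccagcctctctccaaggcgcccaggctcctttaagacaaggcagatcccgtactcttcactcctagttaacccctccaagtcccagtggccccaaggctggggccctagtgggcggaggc
In Mfge8 the core starts 136 bases before the transcription start, and the Axl window holds none.

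Among receptors that bind dying cells without a TAM bridge, Cd36 was lower and Timd4 was near the limit of detection. Cd36 (ENSMUSG00000002944, minus strand of chromosome 5, 17781690 to 17888801) encodes a scavenger receptor for oxidized lipids and thrombospondin. It was at 268 and 250.15 CPM in the Control and at 188 and 191 CPM in the Tumor libraries, so the groups did not overlap. The fall from 259 ± 12.4 to 189 ± 1.89 CPM (SD, n = 2 each) was 1.37-fold. On the log2 scale it was -0.45 ± 0.0348 (SE), and edgeR's adjusted p was 7.51e-12. Like Axl, Cd36 was no longer called under scaling on the AM markers, at -0.0117 and an adjusted p of 0.789 in edgeR.

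Timd4 (ENSMUSG00000055546, plus strand of chromosome 11, 46810800 to 46844332) encodes TIM-4, a direct phosphatidylserine receptor of resident macrophages in the peritoneum and liver. It had 13 and 17 counts in the Control and 22 and 12 in the Tumor libraries, and the groups overlapped. Its log2 fold change of 0.08 ± 0.470 (SE) did not pass edgeR's test (adjusted p = 0.899), and its sign changed to -0.52 without Tumor replicate 1 and to -0.22 without Control replicate 1. With an SE of 0.470, a change of the size seen for Axl or Cd36 was not detectable at this depth. TIM-4 also marks Kupffer cells of the liver. The 6 Kupffer cell markers summed to 7.22 to 9.76 CPM in the Control and 3.46 to 3.72 CPM in the Tumor libraries. Cd163 led this sum in the Control group (6.01 CPM), and Cdh5, also in the endothelial list, led it in the Tumor group (1.61 CPM). Vsig4, Cd5l and Folr2 were at the floor in both Tumor libraries, whereas Clec4f had 0 counts in both Control and 3 and 10 in the Tumor libraries.

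Elmo1 did not differ detectably between the groups. ELMO1 acts inside the phagocyte, where it joins DOCK proteins to activate RAC and drive the membrane around the target. Elmo1 (ENSMUSG00000041112, plus strand of chromosome 13, 20090596 to 20608353) was at 106 and 94.9 CPM in the Control and at 102 and 98.5 CPM in the Tumor libraries, with both Tumor values inside the Control range. The difference was -0.00717 ± 0.0505 on the log2 scale (SE), at an adjusted p of 0.920 in edgeR. With libraries scaled on the AM markers it was higher by 0.43 (edgeR adjusted p = 4.06e-08). The 4 predicted genes that overlap Elmo1 reached at most 7 counts each.

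Anxa1 was higher by a small amount. It encodes annexin A1, a calcium-dependent lipid-binding protein that is induced by glucocorticoids, is exposed on apoptotic cells, and acts on formyl peptide receptors. Anxa1 (ENSMUSG00000024659, minus strand of chromosome 19, 20373428 to 20390944) was at 1117 and 1114 CPM in the Control and at 1220.4 and 1226 CPM in the Tumor libraries. The difference exceeded the spread between replicates, with 1115 ± 1.87 against 1223 ± 4.05 CPM (SD, n = 2 each), a 1.10-fold higher level. On the log2 scale it was higher by 0.13 ± 0.0192 (SE; edgeR adjusted p = 1.11e-06), and by 0.57 when libraries were scaled on the AM markers. Neutrophils hold much annexin A1. A CD11b- gate would remove them, but Itgam, which encodes CD11b, was at 130.4 and 133 CPM in the Tumor libraries. The 12 neutrophil markers summed to 4495 to 4511 CPM in the Tumor libraries, and the part of neutrophil transcripts in the rise of Anxa1 was not tested. With TMM scaling the genes of its receptors moved the other way. Fpr1 fell by 0.69 ± 0.0282 on the log2 scale (SE), and changed by -0.25 under scaling on the AM markers. Fpr2, named here after its values were seen, changed by -0.35 ± 0.0256 (SE). Under scaling on the AM markers Fpr2 was called higher, by 0.09 (edgeR adjusted p = 0.00541). The ratio of Anxa1 to Fpr2 counts was 2.19 and 2.20 in the Control and 3.09 and 3.04 in the Tumor libraries.

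The 10 genes were ordered by their level after division by gene length, as CPM per kilobase. In the Control libraries the order from high to low was Anxa1 (427 to 428), Axl (401 to 404), Cd36 (69.7 to 74.6), Pros1 (66.8 to 67.6), Mertk (50.4 to 52.8), Elmo1 (7.54 to 8.46), Mfge8 (0.636 to 0.823), Gas6 (0.597 to 0.733), Timd4 (0.319 to 0.496) and Tyro3 (0.0172 to 0.0409). The ranges of Mfge8 and Gas6 overlapped, and no other neighbours in this order did. The first 2 places depended on the gene length used for Anxa1, which the authors list as 2608 bases. With the union of its GENCODE M21 exons, 2911 bases, Anxa1 was at 383 to 384 in the Control libraries, below Axl, and at 419 to 421 in the Tumor libraries, above it. In the Tumor libraries Pros1 (60.0 to 60.3) came before Cd36 (52.4 to 53.2), Axl (289.6 to 304) lay further below Anxa1 (468 to 470.2), and Mfge8 (1.49 to 1.62) no longer overlapped with Gas6 (0.385 to 0.400), whose range lay within that of Timd4 (0.281 to 0.585). Among the 14256 genes tested, with the listed lengths, Anxa1 ranked 76 by this level in the Control and 67 in the Tumor group, Axl 83 and 133, and Mertk 982 and 1620. Gene length for Elmo1 was 12580 bases, the union of all annotated exons, so its level per length would be higher if AMs use a shorter transcript.

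The surroundings of these genes in the uptake pathway were read from 123 further genes in 10 roles, listed from general knowledge but with earlier results of these data known. Of the 110 tested, 37 were higher and 49 were lower by edgeR's test, a share of 78.2% against 53.8% of all genes tested. These shares were not compared at like counts, so the difference is not read as a trait of the pathway. Their median log2 fold change was -0.04, against 0.02 for all genes tested. With scaling on the AM markers 83 were higher and 13 were lower, against a background of 72.0% of all genes tested that were called, 65.9% as higher and 6.08% as lower. The counts under that scaling given for each role below are to be read against this shift of the whole table, whose median moved from 0.02 to 0.46 on the log2 scale.

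Of 15 tested other uptake receptors, 4 were higher and 6 were lower, or 12 and 3 with scaling on the AM markers. Itgb3, the integrin beta chain that pairs with alpha v to bind MFG-E8, rose from 0.695 ± 0.00243 to 59.6 ± 3.80 CPM (SD, n = 2), by 6.41 ± 0.151 on the log2 scale (SE). Itgb3 is also a platelet gene, and of the 5 platelet and megakaryocyte markers Ppbp and Gp1bb were at the floor in all 4 libraries, while the summed level of the list was 6.08 CPM in both Control libraries and 24.3 and 27.7 CPM in the Tumor libraries, most of it Itga2b at 25.2 CPM. Pf4, the platelet marker that led the list in the Control libraries, was called lower, by -2.24 on the log2 scale, and the part of platelets in the rise of Itgb3 was not tested. Olr1, which encodes the oxidized LDL receptor LOX-1, fell by 1.65 ± 0.0277, and Stab1, which encodes the phosphatidylserine receptor stabilin-1, fell by 1.51 ± 0.154 on the log2 scale (SE). Both were also lower under scaling on the AM markers, by -1.21 and -1.07. Of 12 tested other bridges and opsonins, 5 were higher and 6 were lower, or 7 and 3 with AM marker scaling. Thbs1, which encodes thrombospondin-1, a bridge between dying cells and CD36, rose from 9.61 ± 0.921 to 322 ± 15.5 CPM (SD, n = 2). The part of other cells in this rise was not tested. C4b rose by 2.34 on the log2 scale, and the plasma protein gene Apoh, with 1 count in each Control library, was at least 66.2-fold higher. Apoh is made by hepatocytes, whose marker Alb was at 464 and 477 CPM in the Tumor libraries. The part of hepatocyte transcripts in the rise of Apoh was not tested.

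**Figure D5:**
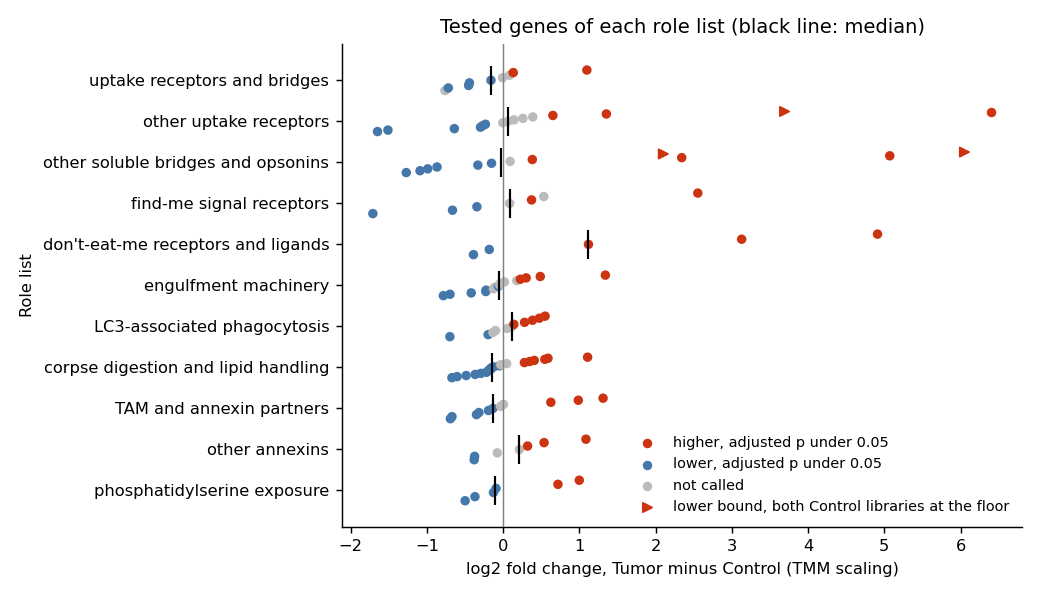
Log2 fold change (Tumor minus Control, TMM scaling) of each tested gene by role, with the list median as a line and lower bounds as triangles. The 9 tested uptake receptors and bridges at the top have a median of -0.16, and rises above 2 on the log2 scale occur among other receptors, bridges, find-me receptors and don't-eat-me genes.

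Find-me receptors sense signals that dying cells release. Of 7 tested, 2 were higher and 3 were lower, or 4 and 1 with AM marker scaling. Gpr132, a receptor for lysophospholipids and lactate, rose from 15.1 ± 1.12 to 88.7 ± 2.90 CPM (SD, n = 2), and the part of other cells in this rise was not tested. P2ry2 rose by 0.37 and P2ry6 changed by -0.34 on the log2 scale. P2ry6 turned to 0.10 under scaling on the AM markers, where it was not called (edgeR adjusted p = 0.229). All 5 don't-eat-me genes were called, 3 as higher, or 5 with AM marker scaling. Siglecg rose by 4.91, Pecam1 by 3.13 and Cd24a by 1.12 on the log2 scale. CD24 is a ligand of Siglec-G and is abundant on neutrophils and other leukocytes, whose part in these rises was not tested.

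Inside the phagocyte, 4 of 16 tested genes of the engulfment machinery were higher and 6 were lower, or 11 and 2 with AM marker scaling. Rac2, the RAC protein of blood cells, rose from 159.6 ± 2.27 to 404 ± 9.08 CPM (SD, n = 2), whereas the adaptor gene Crk fell by 0.78 and the exchange factor gene Trio by 0.70 on the log2 scale. The part of neutrophils and other blood cells in the rise of Rac2 was not tested. Crk joins the ELMO1 and DOCK1 complex to adhesion receptors. Both Crk and Trio were also lower with scaling on the AM markers, by -0.34 and -0.26. Of 11 genes of LC3-associated phagocytosis, 5 were higher and 2 were lower, or 10 and 1 with AM marker scaling. Cybb, the catalytic subunit of the phagocyte oxidase, fell by 0.70, and Uvrag and Map1lc3b rose by 0.55 and 0.48 on the log2 scale. Under scaling on the AM markers Cybb changed by -0.26, Uvrag by 0.99 and Map1lc3b by 0.92. Of 20 genes of corpse digestion and lipid handling, 6 were higher and 12 were lower, or 17 and 1 with AM marker scaling. The cholesterol exporter gene Abca1 and Nr1h3, which encodes the sterol sensor LXR alpha, changed by -0.67 and -0.60 on the log2 scale. Under scaling on the AM markers Abca1 changed by -0.23, and Nr1h3 was not called, at -0.16 (edgeR adjusted p = 0.101). Slc2a1, the glucose transporter GLUT1, rose by 1.11.

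Of 11 partners of TAM receptors and annexin A1, 3 were higher and 6 were lower, or 7 and 2 with AM marker scaling. Adam17, which encodes the protease that sheds MERTK from the cell surface, fell from 453 ± 9.81 to 285 ± 4.34 CPM (SD, n = 2), by 0.67 ± 0.0280 on the log2 scale (SE). Under scaling on the AM markers Adam17 changed by -0.23. Ifnar2, a chain of the type I interferon receptor through which TAM receptors signal, rose by 0.99. Among 7 tested other annexins, 3 were higher and 2 were lower, or 6 and 0 with AM marker scaling. Anxa6 and Anxa3 rose by 1.09 and 0.54, whereas Anxa2 changed by -0.38 and turned to 0.06 under scaling on the AM markers. All 6 tested genes of phosphatidylserine exposure were called, 2 as higher and 4 as lower, or 4 and 0 with AM marker scaling. The flippase gene Atp11a rose by 0.999 and the scramblase gene Xkr8 by 0.72 on the log2 scale, the latter losing its call without Control replicate 2, at 0.51 (edgeR adjusted p = 0.0620). Plscr1 changed by -0.50, and by -0.06 with an adjusted p of 0.199 under scaling on the AM markers in the same edgeR test.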

How the data were processed

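Bulk RNA-seq of AMs was analysed from the deposited counts, 1 column per library. Per the methods of the study, the authors aligned paired-end reads with HISAT2 2.0.5 and counted reads per gene with featureCounts. The deposited counts were not normalized, and strandedness and the handling of reads with several matches are not given in the sources used here. Of the gene identifiers, 54495 were found in GENCODE M21 (GRCm38), 98.3% with identical coordinates. Libraries were grouped by their titles. In R 4.3.3, genes were kept by filterByExpr of edgeR 4.0.16 at a minimum count of 10, which left 14256 genes and removed Tyro3. Library sizes were scaled by TMM, and the quasi-likelihood test with group as its term and 2 residual degrees of freedom was run, with p-values adjusted by Benjamini-Hochberg across the whole table and called at a threshold of 0.05. The SE was obtained from the log2 fold change and its F statistic. The biological coefficient of variation was 0.0303. Replicates were not the same library deposited again, as chi-square per gene was 1.81 in the Control and 2.30 in the Tumor pair. CPM are counts over the scaled library size, and the level per length divides them by the gene length that the authors list, which equalled the union of GENCODE M21 exons for 9 of the 10 genes, Anxa1 being the exception. Genes at or below 3 counts in both libraries of a group were given a bound against that floor. Intervals are exact Poisson or Wilson intervals at 95% and cover counting error only. The test was first checked on simulated counts.

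The 10 genes and the lists of pathway and marker genes were chosen with earlier results of these data known. All 10 genes were named, and of each pathway role up to 3 called genes with the largest absolute log2 fold change and a mean of at least 5 CPM in the higher group. Alternatives were DESeq2 size factors, total counts, scaling on the median ratio of 14 AM markers, no filter, a minimum of 10 counts in all libraries, DESeq2 1.42.0 (Wald test), voom in limma 3.58.1, a replicate block, stricter thresholds and leaving out each library.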

Additional observations from a re-analysis of the deposited data

How the results depend on the processing

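Across the 12 alternative fits, Mertk, Mfge8 and Anxa1 kept direction and call, and Gas6 was not called in any. Scaling on the AM markers ended the calls of Axl (-0.000390), Cd36 (-0.0117), Nr1h3 (-0.163), Plscr1 (-0.0579) and P2ry6, which also changed sign (0.0967), and reversed Pros1 (0.28), Fpr2 (0.0910) and Anxa2 (0.0613). Elmo1, not called with TMM, changed sign and was called (0.43). It also changed sign, without a call, with total counts (0.0596) and with at least 10 counts in every library (0.0175). Leaving out each library gave -0.105 to 0.0715 for Elmo1 and -0.52 to 0.53 for Timd4. A log2 fold change of at least 1 left 2268 of 7671 genes, 20 of 86 pathway genes and 1 of 6 called genes, Mfge8, so that Mertk (-0.72), Axl (-0.44), Pros1 (-0.16), Cd36 (-0.45) and Anxa1 (0.13) were not counted. In plain counts, Mertk made up 9.94% of TAM receptors in the Control and 8.36% in the Tumor group, and Axl 90.0% and 91.6%. With the GENCODE M21 exon union as its length, an alternative chosen after seeing the data, Anxa1 was at 383 CPM per kilobase in the Control and 420.2 in the Tumor group, against 428 and 469 with the deposited length. The deviations of same-numbered libraries correlated at -0.00278, so the numbers were not taken as pairs. With the replicate block 7446 genes were called, with the same 6 of the 10 genes and the same directions. A fit without a library rests on 1 residual degree of freedom and assumes that a lone library varies like the other group. Depth limits Tyro3, Gas6 and Timd4, which had at most 35 counts in a library.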
